A study of Mus musculus with 17 samples.

Results

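Genes that encode proteins of the regulated secretory granule and of prohormone processing were followed, 10 in all: Chga, Chgb, Scg2, Scg3, Scg5, Cpe, Pcsk1, Pcsk1n, Resp18 and Scgn. They were taken as the array probes whose gene name equals one of these symbols. All 10 passed the filter on dim probes, among 27768 gene names tested and 35019 on the array. Every member was well above background on all 9 LGR5lo arrays, and 8 of the 10 also on all 7 LGR5hi arrays with usable flags, Resp18 and Scgn being the exceptions.

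The samples were intestinal cells of LGR5-GFPki mice, in which a fluorescent reporter knocked into the Lgr5 locus marks crypt stem cells, and each sample was hybridised to a single-colour Agilent array. All 4 groups carried this allele, and the labels call all of them intestinal stem cells. Irradiated LGR5hi cells (n = 4) and irradiated LGR5lo cells (n = 4) came from mice given 12 Gy of gamma-irradiation, and non-irradiated LGR5hi cells (n = 4) and non-irradiated LGR5lo cells (n = 5) from mice given none. Cells were isolated by flow sorting on the reporter, 3 hours after exposure in the irradiated arm. The mice's age and whether animals were pooled are not given in the sources used here, and nothing says that the arrays of a group come from separate mice, so p-values measure the spread between these samples only. Each group held both sexes.

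Levels below are log2 signals relative to the 75th percentile of each array, so 0 is the brightness of the probe at that percentile. A probe's level was set only against the same probe in other groups, since probes differ in their response. That percentile ranged between 287 and 628 intensity units over the 16 arrays with whole files. Non-irradiated LGR5lo replicate 2 had 95.6% of its spots above background, against 58.9% to 73.9% on the other arrays with whole files, and the values of non-irradiated LGR5hi replicate 1 were rebuilt from the deposited series table, with no background flags used. Neither array changed a member's call when left out. The 8 tested markers of LGR5 stem cells were higher in LGR5hi than in LGR5lo cells in both arms (8 of 8 called), which the sort itself selects for. Their mean level was 4.41 to 4.83 in irradiated LGR5hi and 2.47 to 3.07 in irradiated LGR5lo cells, and 5.37 to 5.67 in non-irradiated LGR5hi and 3.1 to 4.07 in non-irradiated LGR5lo cells, where replicate 2 was the lowest.

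Enteroendocrine cells store peptide hormones and amines in dense core granules. Granins (the chromogranins and secretogranins) aggregate in the Golgi and help to load these granules, proprotein convertases such as PCSK1 cut the hormone precursors at pairs of basic residues, and carboxypeptidase E, the product of Cpe, trims the basic residues left behind. The genes are therefore used as general markers of endocrine and neuroendocrine cells, in the gut as in the pancreas and the pituitary.

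The promoters of 9 members were in the RefSeq table of mouse gene starts (build GRCm38.p6), and that of Cpe was not. A cAMP response element, TGACGTCA, the palindromic motif bound by CREB-type factors, was searched on both strands in the 250 bases before and the 50 bases after each start, together with its variant TGACGTAA and its core TGACG, which both longer motifs contain. The full motif was in 3 of the 9 windows (Scg2, Chgb and Pcsk1), against 1.79% of all 32851 windows, and the variant was in 1 (Chga), against 0.499%. The core was in 6 of the 9 (Scg2, Scg5, Chgb, Scg3, Chga and Pcsk1), against 20.8%. The first base of the element lay 68, 72 and 78 bases before the start in Scg2, Chgb and Pcsk1, and that of the variant lay 44 bases before it in Chga. A match is a description of these letters and not a measured site. The 250 bases before the start are printed 5′ to 3′ for the 4 members with the element or its variant in capitals, and for Pcsk1n, the member whose levels went another way, whose window holds none of these motifs. The Scg2 sequence is at chr1:79440027-79440276, minus strand. For Chgb the position is chr2:132781392-132781641, plus strand, and for Pcsk1 chr13:75089607-75089856, plus strand. For Chga it is chr12:102554691-102554940, plus strand, and for Pcsk1n chrX:7919572-7919821, plus strand.
Scg2: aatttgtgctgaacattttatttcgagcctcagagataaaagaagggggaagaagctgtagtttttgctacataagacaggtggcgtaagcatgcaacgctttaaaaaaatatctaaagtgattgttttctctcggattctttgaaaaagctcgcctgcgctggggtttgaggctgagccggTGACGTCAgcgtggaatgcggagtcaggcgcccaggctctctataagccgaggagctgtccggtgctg
Chgb: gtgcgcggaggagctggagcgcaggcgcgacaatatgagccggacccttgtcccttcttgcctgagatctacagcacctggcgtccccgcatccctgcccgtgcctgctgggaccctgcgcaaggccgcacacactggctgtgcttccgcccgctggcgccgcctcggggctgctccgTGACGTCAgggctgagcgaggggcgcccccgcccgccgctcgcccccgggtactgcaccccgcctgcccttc
Pcsk1: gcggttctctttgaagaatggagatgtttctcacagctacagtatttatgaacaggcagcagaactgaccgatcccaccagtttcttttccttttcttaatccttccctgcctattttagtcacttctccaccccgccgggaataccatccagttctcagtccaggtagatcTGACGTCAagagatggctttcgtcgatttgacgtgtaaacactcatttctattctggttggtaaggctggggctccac
Chga: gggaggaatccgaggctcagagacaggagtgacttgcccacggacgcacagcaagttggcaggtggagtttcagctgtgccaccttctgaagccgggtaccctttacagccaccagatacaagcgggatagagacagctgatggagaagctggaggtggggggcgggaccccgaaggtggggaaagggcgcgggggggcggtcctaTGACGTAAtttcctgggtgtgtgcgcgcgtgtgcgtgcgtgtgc
Pcsk1n: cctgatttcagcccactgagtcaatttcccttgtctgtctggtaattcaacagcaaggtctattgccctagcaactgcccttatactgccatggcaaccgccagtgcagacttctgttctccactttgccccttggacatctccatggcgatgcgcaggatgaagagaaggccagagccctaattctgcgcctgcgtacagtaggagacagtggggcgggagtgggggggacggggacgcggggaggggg

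The comparison of the sorts asked how far these genes differ between LGR5hi and LGR5lo cells. Of the 10 members, 9 were lower in LGR5hi cells in both arms and 0 were higher. For the 7 of them above background on every flagged array the difference was 4.83-fold (Scg5) to 27.6-fold (Chga) after irradiation and 3.65-fold (Pcsk1) to 16.6-fold (Cpe) without it. Resp18 and Scgn were at background on part of the LGR5hi arrays and passed the filter on dim probes through the LGR5lo arrays, so the sizes of their differences depend on how background is treated. Pcsk1n was the exception, with small positive differences that did not pass the test. Among all 27768 gene names, 6.27% were called after 12 Gy (4.08% lower) and 9.53% without irradiation (4.91% lower), at an adjusted p under 0.05. The median difference over all 10 members was -4.52 after 12 Gy, beside 0.05 for all genes, and -3.89 without irradiation, beside -0.08. These medians count Resp18 and Scgn, so their size also depends on how background is treated. With normexp, another background correction, the members' medians were -2.64 and -2.14, beside 0.02 and 0.04. In these bulk samples fewer cells of a type and less RNA per cell cannot be told apart.

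**Figure D1:**
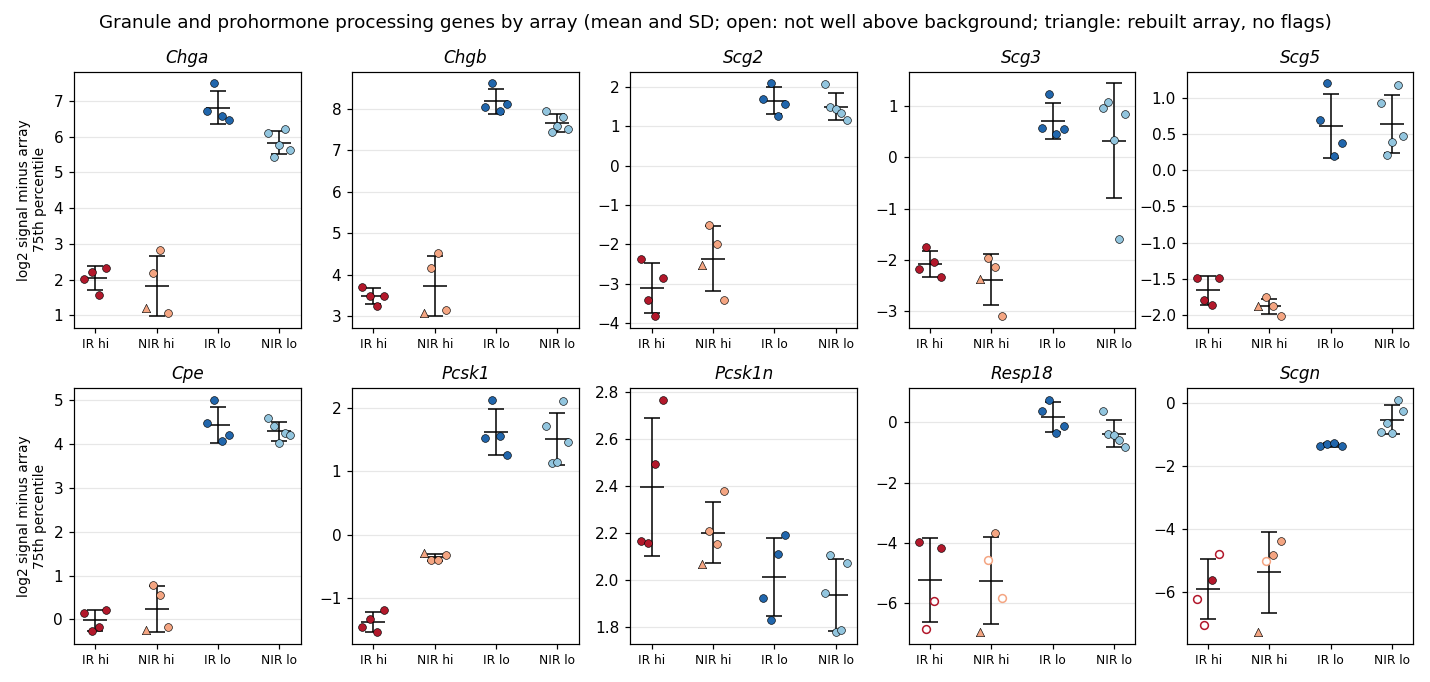
Level of each of the 10 genes on every array, as log2 signal relative to each array's 75th percentile, with a panel for each gene and its own y axis. IR and NIR stand for irradiated and non-irradiated, hi and lo for LGR5hi and LGR5lo, bars give the mean and SD, open points were not well above background and the triangle is the rebuilt array. In 9 panels all LGR5hi points lie below all LGR5lo points of the same arm, and in the Pcsk1n panel the groups overlap.

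Among the granins, Chga encodes chromogranin A, an acidic granule protein and the usual histological marker of endocrine cells (probe at mm9 chr12:103803083-103803142, plus strand). In LGR5hi cells Chga had levels of 2.02, 2.22, 1.56 and 2.32 after irradiation and 1.21, 2.18, 2.82 and 1.05 without it. In LGR5lo cells Chga had 6.73, 7.49, 6.57 and 6.47 after irradiation and 6.12, 5.42, 5.77, 6.2 and 5.63 without it. All LGR5hi arrays lay far below all LGR5lo arrays, and the highest LGR5hi value was 4.15 log2 below the lowest LGR5lo value after irradiation and 2.61 below it without. The LGR5hi minus LGR5lo difference was -4.79 ± 0.35 after 12 Gy (SE, adjusted p = 6.44e-07) and -4.01 ± 0.33 without irradiation (adjusted p = 1.68e-06).

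Chgb encodes chromogranin B, the sister granin that also binds calcium in the granule (probe at chr2:132620703-132620762, plus strand). Chgb levels in LGR5hi cells were 3.71, 3.5, 3.26 and 3.5 after irradiation and 3.09, 4.17, 4.52 and 3.15 without it. In LGR5lo cells Chgb had 8.05, 8.61, 7.94 and 8.11 after irradiation and 7.95, 7.44, 7.58, 7.80 and 7.52 without it. The sorts were again apart on every array, with a difference of -4.69 ± 0.28 after 12 Gy and -3.92 ± 0.26 without irradiation. By p-value Chgb ranked 8 and 13 among the 27768 names in these comparisons.

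Scg2 encodes secretogranin II, the precursor of secretoneurin (probe at chr1:79431323-79431382, minus strand). Scg2 in LGR5hi cells had levels of -2.37, -3.42, -3.82 and -2.86 after irradiation and -2.53, -1.51, -1.98 and -3.42 without it. In LGR5lo cells Scg2 had 1.69, 2.09, 1.27 and 1.57 after irradiation and 2.09, 1.5, 1.43, 1.35 and 1.16 without it. All LGR5lo arrays were above the arrays' 75th percentile and all LGR5hi arrays were well under it. The Scg2 difference was -4.78 ± 0.37 after 12 Gy and -3.87 ± 0.36 without irradiation, and -3.49 and -3.05 with normexp.

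Scg3 encodes secretogranin III, which binds chromogranin A and carboxypeptidase E and tethers them to the granule membrane (probe at chr9:75491320-75491379, minus strand). In LGR5hi cells Scg3 had -2.17, -1.74, -2.05 and -2.34 after irradiation and -2.36, -1.96, -2.13 and -3.09 without it. In LGR5lo cells Scg3 had 0.57, 1.24, 0.46 and 0.56 after irradiation and 0.97, 1.08, 0.33, -1.60 and 0.84 without it. The value of -1.60, in non-irradiated LGR5lo replicate 4, stood alone in its group and came within 0.37 log2 of the highest LGR5hi array. Scg3 differed by -2.78 ± 0.46 after 12 Gy and by -2.71 ± 0.44 without irradiation. The difference without irradiation was -3.19 when non-irradiated LGR5lo replicate 4 was left out. With normexp the difference without irradiation was -2.03 and its adjusted p 0.0548.

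Among the processing enzymes, Cpe encodes carboxypeptidase E and was measured by 3 probes (the brightest at chr8:67071401-67071460, minus strand). Cpe had levels in LGR5hi cells of 0.14, -0.26, -0.17 and 0.22 after irradiation and -0.25, 0.79, 0.56 and -0.18 without it. In LGR5lo cells Cpe had 4.46, 5.0, 4.06 and 4.20 after irradiation and 4.58, 4.39, 4.0, 4.25 and 4.21 without it. The groups were narrow and at least 3.21 log2 apart in each arm. Cpe was 21.8-fold lower in LGR5hi cells after 12 Gy (-4.45 ± 0.25, adjusted p = 5.86e-08) and 16.6-fold lower without irradiation (-4.05 ± 0.24, adjusted p = 1.00e-07), which placed it at ranks 4 and 6 of all names by p-value. The other probes of Cpe gave -4.27 and -3.94 after 12 Gy and -3.79 and -3.58 without irradiation.

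Pcsk1 encodes the proprotein convertase that makes the first cuts in many gut prohormones (probe at chr13:75269727-75269786, plus strand). In LGR5hi cells Pcsk1 had -1.45, -1.33, -1.54 and -1.19 after irradiation and -0.29, -0.40, -0.40 and -0.32 without it. In LGR5lo cells Pcsk1 had 1.53, 2.13, 1.56 and 1.27 after irradiation and 1.71, 1.13, 1.15, 2.11 and 1.47 without it. From low to high the order was irradiated LGR5hi, non-irradiated LGR5hi and then both LGR5lo groups, whose ranges overlapped. The LGR5hi minus LGR5lo difference was -3.0 ± 0.22 after 12 Gy and -1.87 ± 0.21 without irradiation. On arrays centred on their median the difference without irradiation was -1.40, with an adjusted p of 0.0619.

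Among the helpers and inhibitors, Scg5 encodes the neuroendocrine chaperone of the convertase PCSK2 (probe at chr2:113616781-113616840, minus strand). Scg5 ranged over -1.86 to -1.48 in irradiated LGR5hi and 0.19 to 1.2 in irradiated LGR5lo cells, and over -2.01 to -1.75 in non-irradiated LGR5hi and 0.22 to 1.17 in non-irradiated LGR5lo cells. Its difference, -2.27 ± 0.23 after 12 Gy and -2.51 ± 0.22 without irradiation, was among the smaller of the 9.

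Pcsk1n encodes proSAAS, an inhibitor of PCSK1 (probe at chrX:7500267-7500326, plus strand). In LGR5hi cells Pcsk1n had levels of 2.16, 2.16, 2.49 and 2.77 after irradiation and 2.07, 2.21, 2.15 and 2.38 without it. In LGR5lo cells Pcsk1n had 1.92, 1.83, 2.11 and 2.19 after irradiation and 1.95, 2.11, 1.78, 1.79 and 2.07 without it. The groups overlapped in both arms. The difference was 0.38 ± 0.16 after 12 Gy (95% interval 0.05 to 0.71, adjusted p = 0.204) and 0.26 ± 0.15 without irradiation (-0.05 to 0.58, adjusted p = 0.283).

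Resp18 encodes a luminal protein of endocrine cells related to the granule receptor Ptprn (probe at chr1:75268777-75268836, minus strand). In LGR5hi cells Resp18 had -3.97, -6.88, -5.95 and -4.18 after irradiation and -6.99, -4.58, -3.68 and -5.85 without it. In LGR5lo cells Resp18 had 0.39, 0.76, -0.35 and -0.11 after irradiation and 0.39, -0.38, -0.43, -0.59 and -0.83 without it. The LGR5lo values were close together, and the LGR5hi values scattered near background: the probe was well above background on 2 of 4 irradiated and 1 of 3 non-irradiated LGR5hi arrays, and not above it in the readable part of the rebuilt array. The Resp18 difference was -5.42 ± 0.68 after 12 Gy and -4.90 ± 0.64 without irradiation. With normexp the same differences were -2.73 and -2.25, and both still passed the test.

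Scgn encodes secretagogin, a calcium-binding protein of endocrine cells (probe at chr13:24054004-24054661, minus strand, a span of 658 bases). Scgn ranged over -7.07 to -4.81 in irradiated LGR5hi and -1.38 to -1.28 in irradiated LGR5lo cells, and over -7.30 to -4.40 in non-irradiated LGR5hi and -0.95 to 0.11 in non-irradiated LGR5lo cells. It was well above background on 1 of 4 irradiated and 2 of 3 non-irradiated LGR5hi arrays. The Scgn difference was -4.60 ± 0.54 after 12 Gy and -4.87 ± 0.51 without irradiation, was -4.23 without irradiation when the rebuilt array was left out, and with normexp was -1.80 and -1.99.

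**Figure D2:**
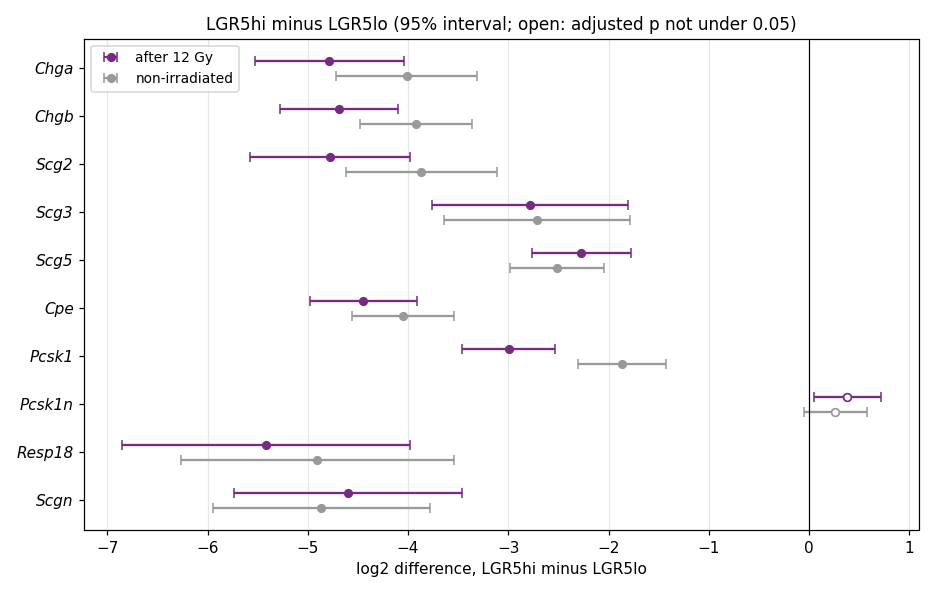
Difference between LGR5hi and LGR5lo cells (log2, x axis) for each gene after 12 Gy (purple) and without irradiation (grey), with the 95% interval of the fit. Filled points passed an adjusted p under 0.05. All intervals but those of Pcsk1n lie well below 0, the means running between -5.42 and -1.87.

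The 9 genes were lower in LGR5hi cells on slide 1 and on slide 2 taken alone, as 9 of 9 differences were negative on both in both arms. Slide 3 held only non-irradiated LGR5lo replicate 5 and allows no such comparison. With 2 arrays a group on a slide, 8 members passed the test on slide 1 and 6 on slide 2 after 12 Gy, and 4 and 6 without irradiation. With slide as a block all 9 passed in both arms. The groups of these 9 genes did not overlap in either arm, which held for 10.1% of all gene names (lower in LGR5hi) after 12 Gy and for 5.16% without irradiation. Resp18 and Scgn are counted here and on the slides, but passed the filter on dim probes through the LGR5lo arrays, where they are high. Their lower LGR5hi values are therefore no added support.

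Irradiation was then compared within each sort. In LGR5hi cells 1 member of 10 passed the test: Pcsk1 was 2.03-fold lower after 12 Gy (-1.02 ± 0.22, adjusted p = 0.00409), and its irradiated arrays all lay below its non-irradiated arrays. Over all names 13.5% were called in this comparison and 7.29% were lower, so the members' share is near that of all genes, and groups without overlap, lower after irradiation, were found for 13% of them. The median member differed by -0.11, beside -0.02 for all genes. Resp18 and Scgn, at background on part of the LGR5hi arrays, are counted in this median. It was -0.43 without non-irradiated LGR5hi replicate 1 and 0.10 without replicate 3 of that group, so its sign rests on single arrays. The Pcsk1 difference was -1.05 on slide 1 and -1.0 on slide 2, with adjusted p of 0.243 and 0.172, and was -1.04 with an adjusted p of 0.246 when arrays were centred on their median.

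Scg2 had the next smallest p in LGR5hi cells, with a difference of -0.76 ± 0.37 (adjusted p = 0.245) and overlapping groups. It passed when non-irradiated LGR5hi replicate 4, its lowest non-irradiated array, was left out (-1.11, adjusted p = 0.0475). Chga, Chgb and Cpe differed by 0.22 ± 0.35, -0.24 ± 0.28 and -0.25 ± 0.25, which are within their errors. Their 95% intervals spanned -0.53 to 0.96 for Chga, -0.83 to 0.35 for Chgb and -0.79 to 0.28 for Cpe.

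In LGR5lo cells, where the members were bright, limma called 0 of 10 after irradiation, and 1 (Chga) had an unadjusted p under 0.05. Of all names 7.44% were called and 24% had an unadjusted p under 0.05. Chga averaged 6.81 ± 0.46 in irradiated and 5.83 ± 0.33 in non-irradiated LGR5lo cells (SD, n = 4 and 5) and the groups did not overlap, with a difference of 0.99 ± 0.33 (95% interval 0.28 to 1.69, adjusted p = 0.0889). The Chga difference was 1.34 on slide 1, 0.54 on slide 2 and 1.52 with arrays centred on their median. It passed with normexp (adjusted p = 0.0409) and when non-irradiated LGR5hi replicate 3, an array outside the comparison, was left out (adjusted p = 0.0445). Scgn was the other member whose groups did not overlap, at -1.33 ± 0.05 in irradiated and -0.52 ± 0.45 in non-irradiated LGR5lo cells, a difference of -0.81 ± 0.51 (adjusted p = 0.324). Non-overlap held for 10.8% of all names. Cpe differed by 0.14 ± 0.24 and Pcsk1 by 0.11 ± 0.21, the intervals being -0.37 to 0.65 and -0.33 to 0.54.

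**Figure D3:**
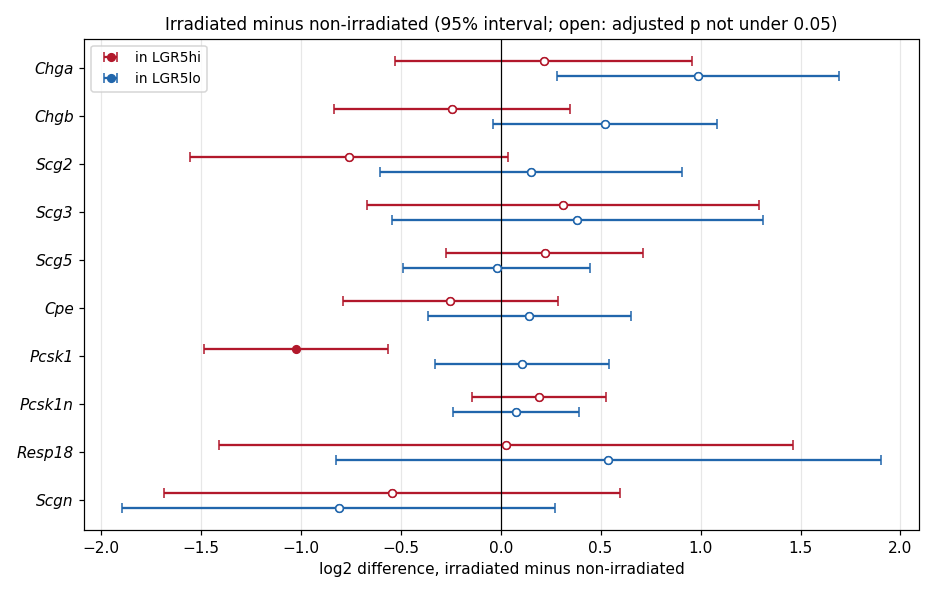
Irradiated minus non-irradiated difference (log2, x axis) for each gene in LGR5hi (red) and LGR5lo cells (blue), with the 95% interval of the fit. The filled point, Pcsk1 in LGR5hi cells at -1.02, is the one that passed an adjusted p under 0.05, and Chga in LGR5lo cells, at 0.99, has an interval above 0 but an adjusted p of 0.0889.

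The difference between the irradiation effects of the sorts, LGR5hi minus LGR5lo, passed for 0 members by limma, and 0.0396% of all names passed. Pcsk1 was the 1 member with an unadjusted p under 0.05, which 6.8% of all names had (-1.13 ± 0.30, adjusted p = 0.354), so its fall in LGR5hi cells is not shown to differ from its difference in LGR5lo cells. Of the 10 values 7 were negative, and the median member value was -0.45, beside 0.06 for all genes. Both count Resp18 and Scgn, which were at background on part of the LGR5hi arrays. That median was -0.76 without non-irradiated LGR5hi replicate 1, -0.13 without replicate 3 of that group, and -1.01 with arrays centred on their median, where all genes had -0.49.

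Some of the members were high or low on the same arrays of a group. In irradiated LGR5lo cells replicate 2 was the highest array for 8 of the 10 genes, and it also had the highest mean of the 13 hormone genes of the group, 4.32, against 3.59 to 4.07 on the other arrays. It was also the highest for the Paneth genes (7.11) and the enterocyte genes (3.28), but not for the goblet genes (7.76) or the tuft cell genes (0.77). In non-irradiated LGR5hi cells replicates 2 and 3 had member means of -0.59 and -0.48, against -1.52 and -1.27 on replicates 1 and 4. The hormone genes followed the same split, at 0.57 and 0.50 against -0.19 and -0.19, as did the goblet genes, at 5.71 and 5.84 against 4.81 and 5.13, and the enterocyte genes, at 2.99 and 4.61 against 1.38 and 0.57. The tuft cell genes did not follow it, at -0.53 and -0.62 against -1.73 and -0.38, and the LGR5 stem cell genes ran the other way, at 5.45 and 5.37 against 5.67 and 5.62. The part of these in the spread of the members was not tested. The member means include Resp18 and Scgn, which scatter near background in LGR5hi cells. On non-irradiated LGR5hi replicate 1, the rebuilt array, they had -6.99 and -7.30, against -3.68 and -4.82 on replicate 3.

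With group means removed, over the 16 arrays other than non-irradiated LGR5lo replicate 2, the correlation of a gene with the mean of the other 9 members was 0.943 for Cpe, 0.853 for Chgb, 0.835 for Resp18, 0.777 for Chga and 0.694 for Scg2. It was 0.533 for Scg5, 0.273 for Scgn, 0.247 for Pcsk1, 0.0834 for Scg3 and -0.00601 for Pcsk1n. The arrays share slides, same-numbered arrays of an arm also share sex, and these values are descriptions. Cpe, Resp18 and the granin genes other than Scg3 had the higher values, and Scg3, Scgn, Pcsk1 and Pcsk1n the lower. Resp18 and Scgn, at background on part of the LGR5hi arrays, enter these values also through the mean of the other members.

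**Figure D4:**
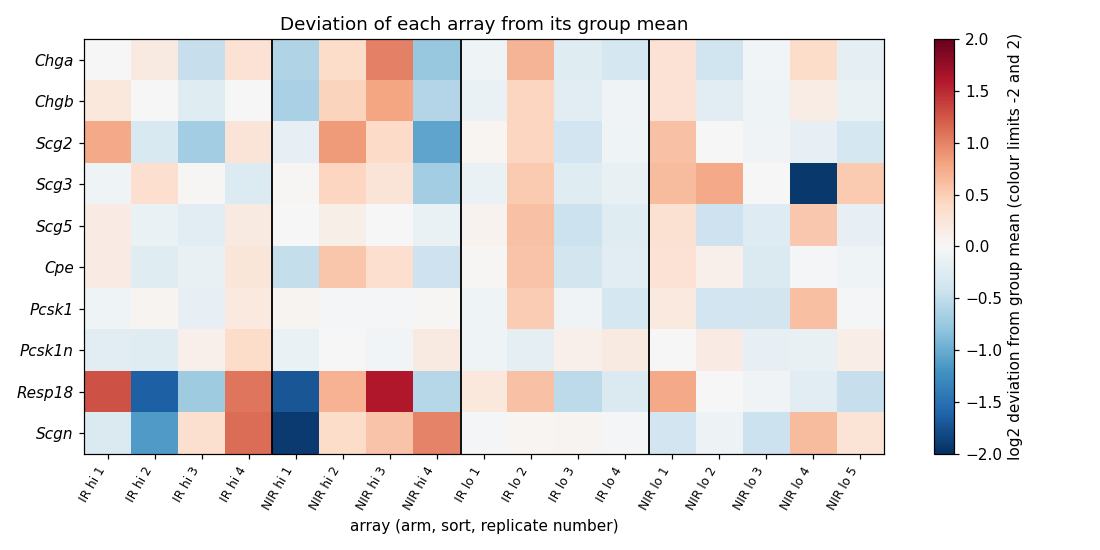
Deviation of each array from its group mean (log2, colour, limited to -2 and 2) for each gene in rows and each array in columns, the groups divided by lines. Irradiated LGR5lo replicate 2 is the highest array of its group for 8 genes, and non-irradiated LGR5lo replicate 4 is strongly negative for Scg3, whose level there was -1.60 against 0.33 to 1.08 on the rest of its group.

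Outside the members, the 8 gene names whose levels over the same 16 arrays were most like the members' mean were Lmx1a (r = 0.990), Shisal1 (0.989), Gcg (0.988), Tff3 (0.986), Gip (0.986), Dner (0.986), Syt13 (0.985) and Sct (0.984). With group means removed the most alike were Tph1 (0.887), Abca7 (0.860), Shisal1 (0.835), Krt84 (0.809), Cck (0.796), Gcg (0.791), Trp53i13 (0.788) and Trpa1 (0.788). Among them are hormone genes (Gcg encodes proglucagon, Gip, Sct and Cck the gut hormones of the same names) and Tph1, the enzyme of serotonin synthesis. Tff3 is one of the goblet genes, so the likeness is not particular to endocrine genes. Shisal1 and Dner were not well above background on any flagged LGR5hi array, and Krt84 on none of the flagged non-irradiated LGR5hi arrays. The members' mean itself includes Resp18 and Scgn, at background on part of the LGR5hi arrays.

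The other enzymes of the pathway were less uniform. Of 13 tested, 3 were lower and 1 was higher in LGR5hi cells after 12 Gy, and 4 were lower and 0 higher without irradiation, with medians of -0.11 and -0.24. Pam, the enzyme that amidates peptide hormones, differed by -1.08 ± 0.19 after 12 Gy and -0.74 ± 0.18 without irradiation. Qpct, which forms the pyroglutamate end of some hormones, was above background on no flagged LGR5hi array, and was at least 3.08-fold lower there after 12 Gy and at least 1.93-fold lower without irradiation. Pcsk5, a convertase also made outside endocrine cells, was higher in LGR5hi cells after 12 Gy by 0.55 ± 0.14. Pcsk6, a convertase of the constitutive pathway, differed without irradiation by -1.72 ± 0.33.

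After irradiation 4 of the 13 enzymes were higher in LGR5hi cells and 3 in LGR5lo cells, and 0 were lower in either. Pcsk6 rose by 2.41 ± 0.35 in LGR5hi and 1.51 ± 0.33 in LGR5lo cells, Pcsk5 by 1.15 ± 0.14 and 0.51 ± 0.13, and Qpctl by 1.07 ± 0.16 and 0.63 ± 0.16. Cpm, a membrane carboxypeptidase, rose by 1.0 ± 0.30 in LGR5hi cells. The difference of effects was 0.89 ± 0.49 for Pcsk6 (adjusted p = 0.716) and 0.64 ± 0.19 for Pcsk5 (adjusted p = 0.511), and passed for 0 of 13.

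Of 12 genes of granule cargo and membrane, 7 were lower in LGR5hi cells after 12 Gy and 7 without irradiation, with medians of -1.45 and -1.07. The 12 include Ptprn, which was above background on few LGR5hi arrays and passed the filter on dim probes through the LGR5lo arrays. Slc18a1, a vesicular monoamine transporter, differed by -2.95 ± 0.28 after 12 Gy and -2.54 ± 0.26 without irradiation. Vgf, a granin-like precursor of several peptides, was 3.99 ± 0.67 higher after irradiation in LGR5lo cells (adjusted p = 0.00144). Its probe was above background on 1 of 3 flagged non-irradiated LGR5hi arrays. In LGR5hi cells its value was 1.25 ± 0.70 (adjusted p = 0.335), and the difference of effects, -2.74 ± 0.97, had an adjusted p of 0.631. Vgf was the single gene of the 12 called for irradiation in either sort.

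Of 23 tested genes of granule docking and release, 12 were lower in LGR5hi cells after 12 Gy and 12 without irradiation, and 0 were higher. The 23 include Sytl5, above background on no flagged LGR5hi array, and Syt7 and Rims2, above it on few. These passed the filter on dim probes through the LGR5lo arrays, so lower LGR5hi values of theirs are no added support. Syt13, a synaptotagmin, differed by -3.92 ± 0.22 and -3.73 ± 0.21, and Cadps, which primes dense core vesicles, by -2.50 ± 0.20 and -2.89 ± 0.19. After irradiation 1 was higher and 3 were lower in LGR5hi cells, and 0 were higher and 1 was lower in LGR5lo cells. Rph3al, a Rab effector of granule exocytosis, fell by 1.67 ± 0.20 in LGR5hi and by 1.08 ± 0.19 in LGR5lo cells. Stx1a, a plasma membrane SNARE, was higher by 1.27 ± 0.21 in irradiated LGR5hi cells.

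The hormone genes and the transcription factors of enteroendocrine cells went with the members between the sorts. Of 13 hormone and serotonin synthesis genes, 12 were lower in LGR5hi cells after 12 Gy and 11 without irradiation (medians -4.08 and -3.74), among them Gip by -6.28 ± 0.41 and -5.30 ± 0.39. Of 16 transcription factors, 15 were lower in both arms (medians -2.84 and -3.25), among them Isl1 by -3.69 ± 0.22 and -3.60 ± 0.21. The 16 include Pax6 and Myt1, above background on no flagged LGR5hi array, which passed the filter on dim probes through the LGR5lo arrays. After irradiation 5 of the 16 were lower in LGR5hi and 5 in LGR5lo cells, among them Isl1 (-0.83 ± 0.22 in LGR5hi and -0.75 ± 0.21 in LGR5lo cells). Isl1 was above background on 2 of 4 irradiated LGR5hi arrays. Of the 13 hormone and serotonin genes, 2 were higher and 2 lower after irradiation in LGR5hi cells, and 2 were higher and 0 lower in LGR5lo cells. Tph1 was higher in both sorts (1.24 ± 0.31 in LGR5hi and 2.10 ± 0.29 in LGR5lo cells), as was Tac1, the precursor of substance P (1.62 ± 0.27 and 1.62 ± 0.25). In LGR5hi cells Nts, which encodes neurotensin, fell by 3.64 ± 0.60, with 2 of 4 irradiated arrays above background, and Ddc, the decarboxylase that completes serotonin synthesis, fell by 1.56 ± 0.28.

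Markers of other cell types moved with the sorts as well. The goblet genes were lower in LGR5hi cells for 7 of 8 in both arms, and the tuft cell genes for 7 of 9 after 12 Gy and 9 of 9 without irradiation. The goblet mean was 4.74 to 5.45 in irradiated LGR5hi and 7.39 to 7.95 in irradiated LGR5lo cells, and 4.81 to 5.84 in non-irradiated LGR5hi and 6.92 to 8.30 in non-irradiated LGR5lo cells. The lowest non-irradiated LGR5lo goblet mean was that of replicate 2. The tuft mean was -1.54 to -0.36 in irradiated LGR5hi and 0.31 to 1.08 in irradiated LGR5lo cells, and -1.73 to -0.38 in non-irradiated LGR5hi and 0.75 to 1.40 in non-irradiated LGR5lo cells. Enterocyte genes passed for 1 of 10 after 12 Gy and 0 without irradiation, and Paneth genes for 0 and 1 of 6, all lower in LGR5hi cells. Their part in the result was not tested.

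Granins are also made by enteric neurons, so neuronal markers were read beside them. Of 15 neuronal genes 6 were not tested, among them Uchl1, Prph, Stmn2, Vip and Gap43, and all 6 were above background on at most 2 of the 16 arrays with flags. Of the 9 tested, 5 were lower in LGR5hi cells in each arm, with a list mean of -4.68 to -4.05 in irradiated LGR5hi and -3.01 to -2.68 in irradiated LGR5lo cells, and of -4.43 to -4.14 in non-irradiated LGR5hi and -2.76 to -1.31 in non-irradiated LGR5lo cells. The value of -1.31 was that of replicate 2, with 95.6% of its spots above background, and the other 4 arrays had -2.76 to -2.35. Nefl, a neurofilament, was above background on 1 of 4 irradiated and 2 of 3 flagged non-irradiated LGR5hi arrays, so its differences of -4.32 ± 0.49 after 12 Gy and -4.0 ± 0.47 without irradiation are set partly against background. Ret, a receptor of neurotrophic factors, was above it on none of them, and was at least 3.71-fold and 5.12-fold lower. Enteric glia genes passed for 0 of 4 in both arms. Leukocyte genes passed for 0 of 13 after 12 Gy and 1 of 13 without irradiation, and stromal and endothelial genes for 1 of 10 in each, all of these lower in LGR5hi cells. The leukocyte mean varied in non-irradiated LGR5lo cells, at -0.72, -0.45 and -0.45 on replicates 2, 4 and 5 against -1.70 and -1.65 on replicates 1 and 3. It was -1.87 to -1.33 in non-irradiated LGR5hi cells. The part of this variation in the result was not tested.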

How the data were processed

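RNA of 17 samples was measured on single-colour (Cy3) Agilent arrays. The deposited scanner files hold linear intensity per spot, made with Agilent Feature Extraction 10.7.3.1 per the submitters' processing notes and background-subtracted per the file headers. A series table deposited by the authors has log2 values, whose scale was worked out from the scanner values: log2 signal relative to the 75th percentile of an array, minus each probe's median. For non-irradiated LGR5hi replicate 1 the scanner file is only partly readable. Its values were rebuilt from that table, and all 13422 readable probes agreed within 0.02 log2 after removal of a constant, which lies in the range of the other arrays. Probe positions are those of the files (build mm9).

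Outlier-flagged spots were left out, spots of a probe averaged, and log2 signal set relative to the 75th percentile. Probes well above background on at least 4 arrays (41440 of 55681) were kept, with the brightest probe per gene name. Group means were fitted with limma 3.58.1 (lmFit and eBayes, R 4.3.3) over all 17 arrays, with Benjamini-Hochberg adjustment over 27768 names and a threshold of 0.05. The test was tried on simulated data. The number of arrays limits the precision. Where no flagged array of a group was above background, the fold is a lower bound: the brighter group's mean against the higher of the dim probe's own signal and the lowest signal above background. Promoters were read from RefSeq. Python 3.11.15 with pandas 2.3.3 and matplotlib 3.10.9 did the rest.

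The members and the other gene lists were chosen with earlier results of these data known. All 10 members are described, with up to 4 genes of smallest p from each other list and the 8 names most like the members' mean. Marker lists describe goblet, tuft, enterocyte, Paneth, neuronal, glial, leukocyte, stromal and LGR5 stem cells, erythrocytes (0 of 5 genes called between sorts without irradiation, 1 lower after 12 Gy) and p53 targets (6 of 6 higher after irradiation in both sorts). Same-numbered LGR5hi and LGR5lo arrays of an arm deviated from their group means together (r = 0.121 to 0.436 across genes). They also share slide and sex, so these r values cannot show that the numbers are pairs. Blocks by number were used only as alternatives. For same-numbered irradiated and non-irradiated arrays r was -0.0988 to 0.220, and these were not taken as pairs. Alternatives were quantile normalization, median centring, and normexp with an offset of 50 followed by quantile normalization on 16 arrays. Further ones were other filters on dim probes, averaging a gene's probes, the series table, and sex, slide and number as terms. Single slides, fits of the compared groups, another variance model and each array left out were also run. A fixed block for arm and number and a fit without both arrays that stand apart were added after seeing the data.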

Additional observations from a re-analysis of the deposited data

Results flagged for a closer look

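Scg3 gave both values of the 40 examined (10 genes in 4 groups) that stood far from the rest of their group by Dixon's test, which chance alone flags in about 1 group in 20. Non-irradiated LGR5lo replicate 4, the array with a quality fit slope of 0, had an Scg3 level of -1.60, against 0.33 to 1.08 on the other 4 arrays of its group. Irradiated LGR5lo replicate 2 had an Scg3 level of 1.24, against 0.46 to 0.57 on the other 3, and was the highest array of its group for 8 of the 10 genes.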

How the results depend on the processing

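No member reversed under any alternative in a comparison where it was called. The 9 members lower in LGR5hi cells were called in both arms with each array left out (9 to 9 without irradiation and 9 to 9 after 12 Gy). The fits with a replicate block, by number or by arm and number, also called 9 and 9. The block changed no other call. Without irradiation 4 were called on slide 1 alone, where each group has 2 arrays. The irradiation count in LGR5hi cells was 0 with median centring, 0 on slide 1 alone, 0 on slide 2 alone and 1 to 2 with an array left out. In LGR5lo cells it was 1 (Chga) with normexp and 0 to 1 with an array left out. For the difference of effects 0 members were called under every alternative run. Median centring moved the median of all genes for irradiation in LGR5lo cells to 0.40, against -0.13, and for the sorts without irradiation to 0.39, against -0.08. It turned the split of all called genes for irradiation to 796 higher and 436 lower in LGR5hi cells, against 1715 and 2023, and to 911 and 74 in LGR5lo cells, against 1240 and 827. After 12 Gy it left 96 higher and 570 lower in LGR5hi than in LGR5lo cells, against 610 and 1132. Over the alternatives all called genes numbered 261 (slide 1 alone) to 5190 (without non-irradiated LGR5lo replicate 2) for irradiation in LGR5hi cells, against 3738, and 42 (slide 1 alone) to 2538 (without the same array) in LGR5lo cells, against 2067. The difference of effects gave 0 (9 of 33 alternatives, median centring among them) to 43 (arm and number as a random replicate block), against 11. The sorts gave 118 (slide 2 alone) to 3109 (only the groups compared) after 12 Gy, against 1742, and 97 (slide 1 alone) to 4201 (without non-irradiated LGR5lo replicate 1) without irradiation, against 2645. The fit with arm and number as a random replicate block gave 2891 and 4188 for these. Dim signals limit Resp18 and Scgn, whose differences shrank most with normexp. After 12 Gy those of Scg2 (-4.78 to -3.49), Scg3, Scg5, Pcsk1 and Cpe also shrank. Those of Chga and Chgb changed little there. The causes were not tested.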
